A study of Mus musculus with 8 samples.

Results

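The glycosyltransferase families that build and cap mucin-type O-glycans were examined in the distal ileum of Cftr null mice. Members were taken by symbol: each row whose name begins with Galnt, B3gnt, B3galt, B4galt, B4galnt, Fut, St3gal, St6gal, St6galnac, St8sia, Gcnt or C1galt, leaving out names containing -ps, -as or Rik. This gave 82 of the 41128 rows of the deposited table. Of these, 49 reached a value of 1 or more in 3 or more of the 8 libraries and were tested, among 11911 genes tested in all. The name rule also takes in enzymes that act mainly on glycolipids, N-glycans or proteoglycans, and 8 of these are described separately. Fucosyltransferases and sialyltransferases stayed with their own step whatever their substrate, among them Fut8 and St6gal1, which act on N-glycans.

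Polyadenylated RNA of whole-tissue ileum sections was sequenced from 8 mice of the FVB strain, 1 library per mouse. The mice formed 4 sex-matched littermate couples, each with a homozygous carrier of the null allele Cftrtm1Cam (Cftr -/-, here KO) and a control without it (Cftr N/N, here WT). Couples 1 and 3 were female and couple 2 was male, and none of these 6 mice had antibiotics. The remaining couple, also female, drank water containing ciprofloxacin at 0.3 g/L and metronidazole at 0.5 g/L. All 8 mice, controls included, were raised on a low-fibre diet (C1013) with an osmotic laxative that was stopped more than 4 days before sampling, and tissue came from less than 6 cm above the ileocecal valve. The null allele is present in every cell of the KO mice, so it is not restricted to the epithelium. Ages are not stated in the labels.

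Mucin-type O-glycosylation begins in the Golgi, where GALNT enzymes attach N-acetylgalactosamine (GalNAc) to serine or threonine of mucins and other secreted or membrane proteins. Further enzymes build the core structures, lengthen them with galactose and N-acetylglucosamine (GlcNAc), and cap the ends with fucose, sialic acid or GalNAc. In the ileum these glycans make up much of the mass of goblet cell mucus and of the epithelial glycocalyx, and they serve as attachment sites and food for gut bacteria.

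Values are those of the deposited table, which names no unit. They were taken as RPKM, a read measure scaled by library size and transcript length, so levels can be set side by side between genes. They were tested as log2(value + 1) with limma and Benjamini-Hochberg adjustment over all genes tested, at a threshold of 0.05, and all log2 changes below are KO minus WT on that scale, which understates the change of low genes. Values per library are given in the order of couples 1, 2 and 3. Cftr itself stood at 12.4, 9.94 and 10.1 in the untreated WT and at 3.74, 2.65 and 3.17 in the untreated KO libraries (log2 change -1.50, SE 0.17, limma adjusted p = 0.0072), and at 13.8 in the WT and 4.94 in the KO library of the antibiotic couple. Library sums lay between 346794 and 397082. From values that libraries share, couples 1 and 2, couple 3 and the antibiotic couple appear to be 3 separately normalized sets, which no label states. Couple 3 lists 49 of the 82 members above 0 against 73 to 77 in the libraries of couples 1 and 2, so zeros do not show that a gene was silent.

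The filter was passed by 49 of the 82 members, beside 11911 of the 41128 rows in all. Among the 82 members, 4 (B3gnt4, Galntl5, Gcnt7 and a row named Galntl6_2) were listed at 0 in each library. The tested members were 10 of 19 initiating enzymes, 7 of 8 core and branching enzymes, 8 of 14 extension enzymes, 3 of 3 enzymes adding terminal GalNAc, 3 of 8 fucosyltransferases, 10 of 20 sialyltransferases, and 8 of 8 enzymes set apart as acting mainly on other substrates. The 2 opposite-strand transcripts caught by the name rule, Galnt6os and St8sia3os, were not among them. Just inside the threshold, reaching 1 in 3 libraries, were B3galt5, B3gnt5, Fut2 and Gcnt1, and just outside it, with 2 such libraries, were B3gnt2 (mean 0.941 over the 8 libraries) and B3gnt8 (mean 0.709). B3galt5 and Fut2 passed only through the 3 untreated KO libraries, where they are high, and B3gnt5 only through KO libraries, 1 of them treated with antibiotics. These 3 members therefore had to differ between the groups to be tested at all.

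**Figure D1:**
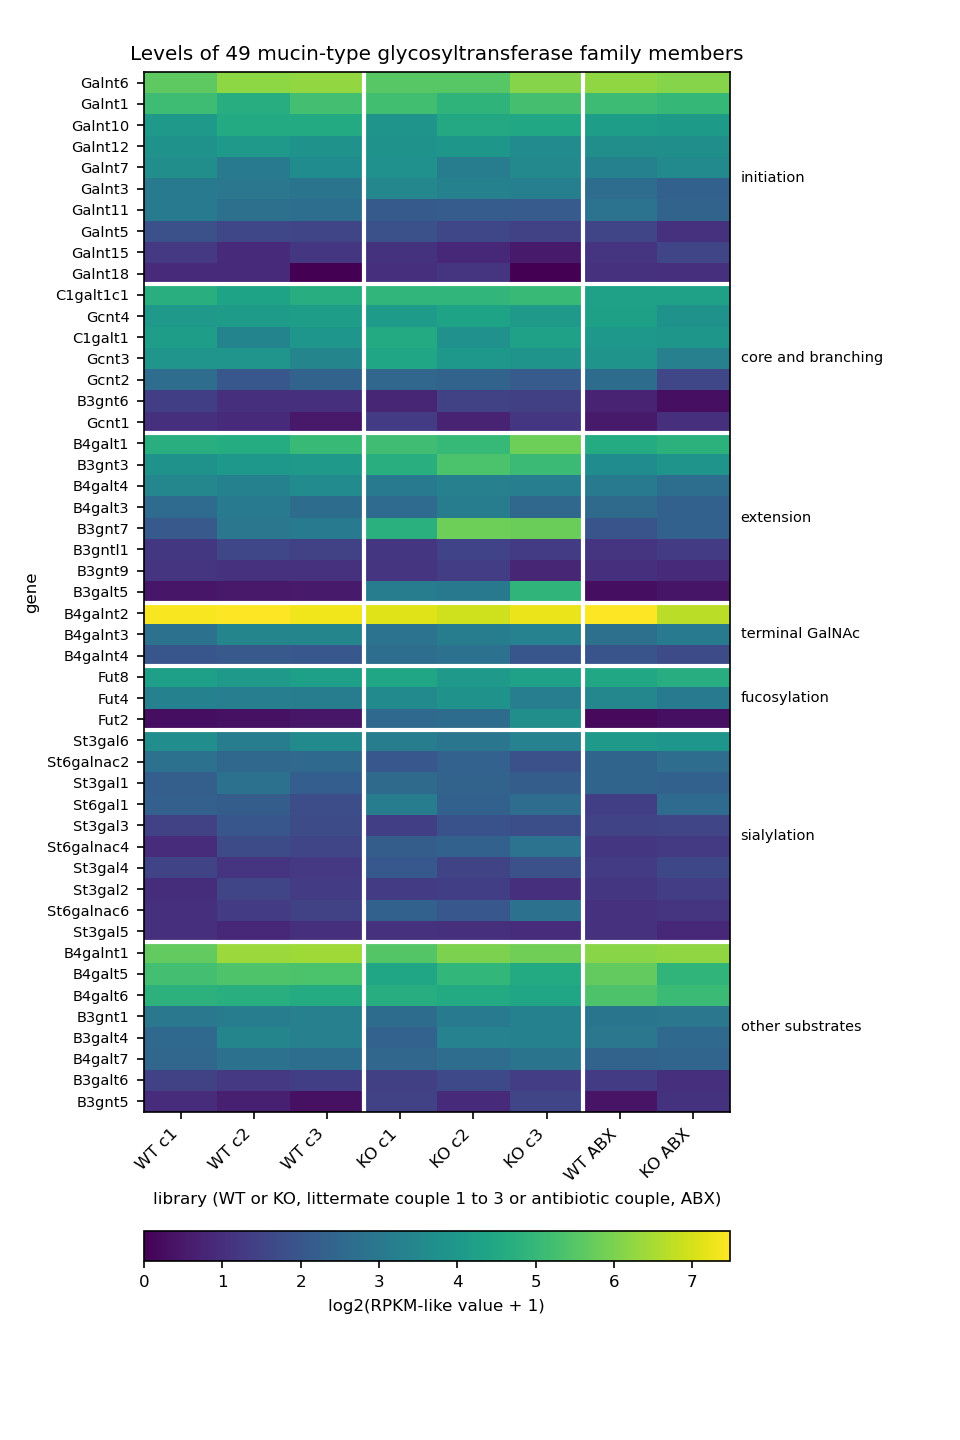
Levels of the 49 tested members as log2(value + 1) in each of the 8 libraries, with genes grouped by role and ordered by mean level, and libraries grouped by genotype and treatment (c1 to c3 are couples 1 to 3, ABX the antibiotic couple). B4galnt2 has the highest level in each library, and B3gnt7, B3galt5 and Fut2 stand out in the 3 untreated KO columns.

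In the untreated KO ileum 3 extension enzymes, B3gnt7, B3galt5 and B3gnt3, and the fucosyltransferase Fut2 rose. Of the 46 members that passed the filter through libraries of both genotypes, 2 (B3gnt7 and B3gnt3) rose, and B3galt5 and Fut2 were among the 3 that passed through KO libraries only, so their calls are a description. Of all genes tested, 1.07% rose with limma. No member fell, beside 0.965% of all genes, and genes called in either direction were 2.04% of those tested. At an unadjusted p under 0.05, 11 members were higher and 3 lower, beside 7.14% and 8.69% of all genes (15.8% in either direction), and the counts at that threshold given below for single steps and lists are to be read against these shares. With the littermate couple as a block, 10 members rose (8.07% of all genes) and 2 fell (9.52% of all genes), out of 17.6% of all genes called in either direction. Without a filter on low values none of the 4 passed the threshold, nor did they when a whole couple was left out and no block was used. The untreated KO libraries lay above the untreated WT libraries without overlap for 10 members (10.3% of all genes) and below them for 5 members (12.1% of all genes). The median log2 change was 0.02 over the 49 members (range -0.71 to 3.18) and -0.02 over all genes tested. A fitted change of 1 or more was found for 6 members (2.3% of all genes) and one of -1 or less for 0 members (1.7% of all genes). B3galt5 and Fut2 are counted in each of these higher sets: the 11 unadjusted, the 10 blocked, the 10 without overlap and the 6. B3gnt5 is also among the 11. The filter favoured a rise in these members, so the counts include differences that it partly fixed.

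**Figure D2:**
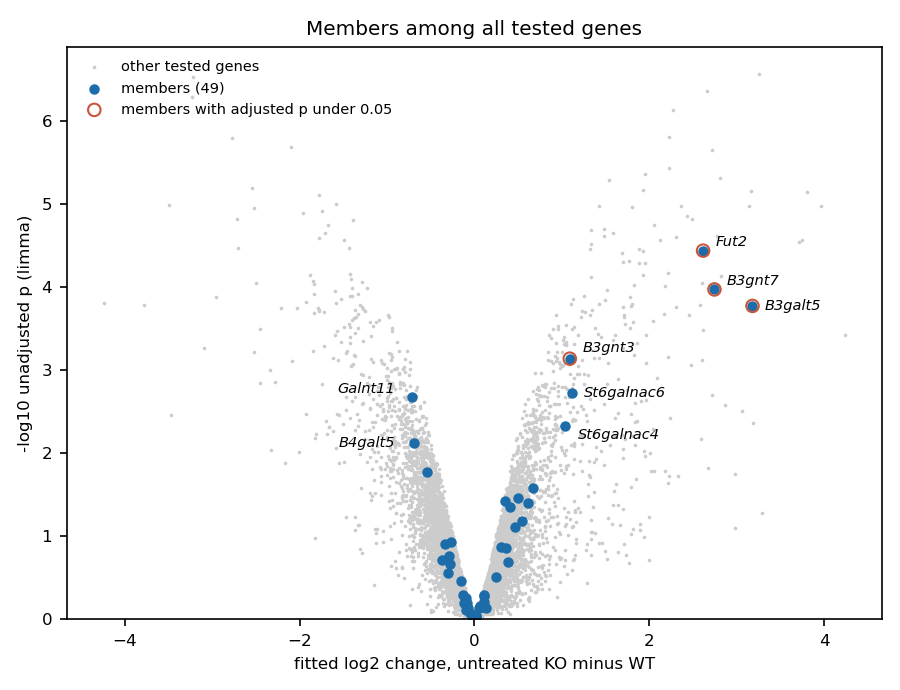
Fitted log2 change in untreated KO minus WT ileum against -log10 of the unadjusted limma p for all 11911 tested genes (grey), with the 49 members in blue and those with an adjusted p under 0.05 ringed. The 4 ringed members lie on the right, and Galnt11 and B4galt5 are the members farthest to the left.

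B3gnt7 adds GlcNAc to galactose and so lengthens poly-N-acetyllactosamine and keratan sulfate chains. It stood at 3.29, 6.76 and 7.48 in WT and at 25.8, 56.2 and 54.6 in KO, so each KO library was well above each WT library. The means were 5.84 ± 2.24 and 45.5 ± 17.1 (SD, n = 3 each), and the log2 change was 2.75 (SE 0.37, limma adjusted p = 0.0168). The change was nearly the same in each couple, at 2.65, 2.88 and 2.71. Without the KO library of couple 3 the call was lost, although the fitted change remained at 2.58.

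B3galt5 adds galactose to GlcNAc in the linkage of type 1 chains, the chains on which the Lewis a and Lewis b antigens are built in humans. Its values were 0.382, 0.430 and 0.468 in WT and 7.93, 7.16 and 28.8 in KO. All WT values were under 1, and the KO library of couple 3 was much higher than the other KO libraries. The means were 0.427 ± 0.0435 and 14.6 ± 12.3 (SD, n = 3 each), and the fitted difference on the log2 scale, 3.18, was the greatest among the members (SE 0.46, limma adjusted p = 0.0204). It was higher in 3 of 3 couples, by 2.69, 2.51 and 4.34. The call was lost when any of the 3 WT libraries was left out. B3galt5 passed the filter only through the 3 untreated KO libraries, so its call and p-value are a description.

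B3gnt3 lengthens core 1 glycans with GlcNAc. Unlike the preceding pair it was well expressed in the controls, at 13.5, 14.8 and 15.6, and it reached 25.3, 40.0 and 33.2 in KO without overlap. The means were 14.6 ± 1.10 and 32.8 ± 7.33 (SD, n = 3 each), and the log2 change was 1.09 (SE 0.20, limma adjusted p = 0.0423). It rose by 0.86, 1.37 and 1.04 in the 3 couples. This call was the least steady: it held in 1 of the 6 fits that left out 1 untreated library, the one without the KO library of couple 1.

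Fut2 adds fucose to terminal galactose and makes the H antigen of the intestinal surface, and in mouse ileum it is known as a gene that gut bacteria and immune cytokines regulate. It was listed at 0.212, 0.252 and 0.360 in WT and at 4.87, 5.29 and 11.9 in KO. As with B3galt5, no WT value reached 1 and the KO library of couple 3 was the highest. Fut2 too passed the filter only through the 3 untreated KO libraries, so its call and p-value are a description. The means were 0.275 ± 0.0764 and 7.36 ± 3.95 (SD, n = 3 each), and the log2 change was 2.62 (SE 0.30, limma adjusted p = 0.00829), with couple values of 2.28, 2.33 and 3.25. Its neighbour Fut1, which makes the same linkage and lies 27531 bases away on chromosome 7, was at 0.402, 0.552 and 0 in WT and at 0.593, 0.712 and 0 in KO. Fut1 thus stayed under 1 in each library and was not tested.

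**Figure D3:**
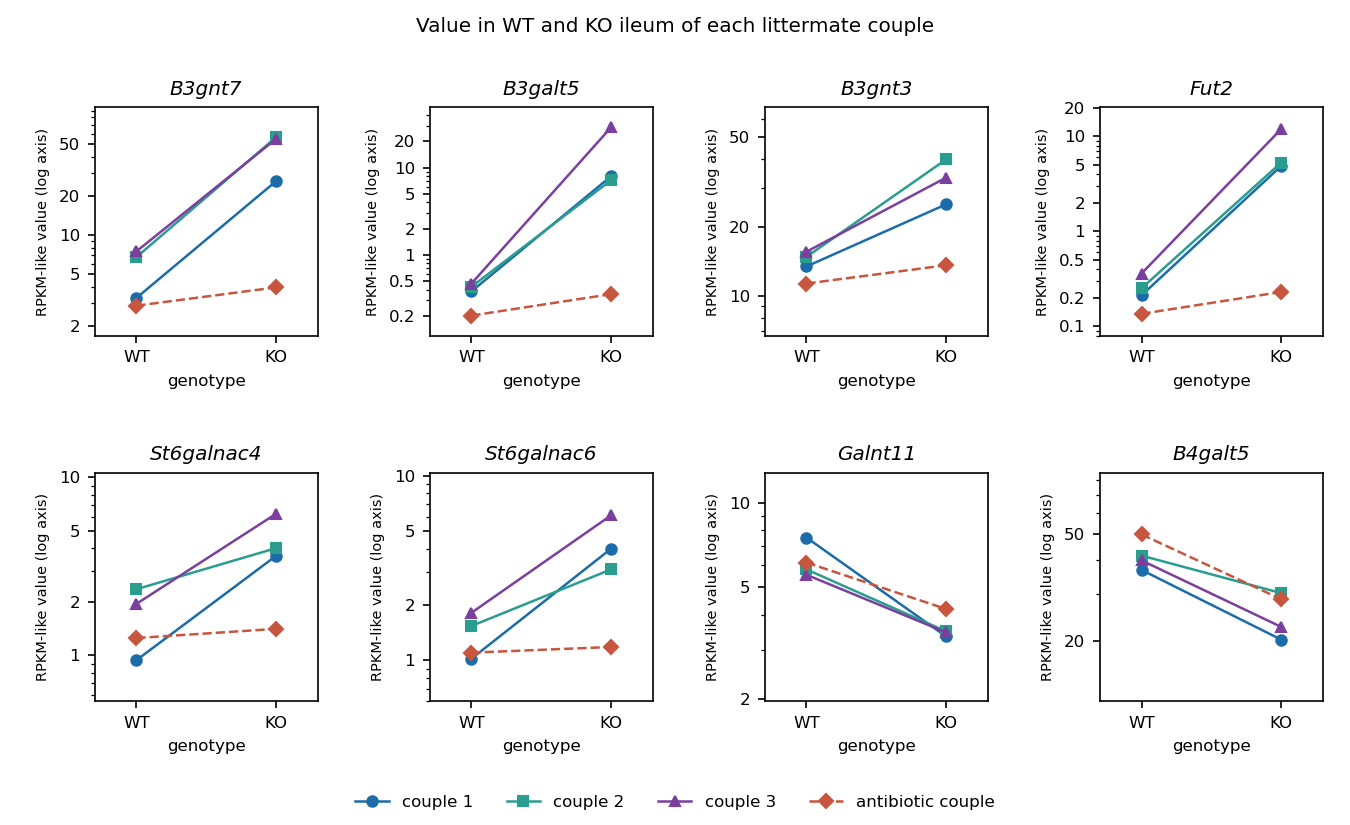
Values of 8 members in WT and KO ileum, with a line joining the littermates of each couple (log axes, RPKM-like value; solid lines are untreated couples and the dashed line is the antibiotic couple). The upper 4 members rise in each untreated couple and less in the antibiotic couple, whereas Galnt11 and B4galt5 run downward in all 4 couples.

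The sequences upstream of the 3 extension genes are shown because these genes moved together. They are the 250 bases before the RefSeq transcription start in the reference genome (GRCm38, strain C57BL/6J, whereas the mice were FVB). Capitals mark a match to the STAT motif TTCNNNGAA, which was searched on both strands along with the interferon-stimulated element GAAANNGAAA and the NF-kB motif.
B3galt5, chr16:96235551-96235800, + strand, first of 3 annotated starts: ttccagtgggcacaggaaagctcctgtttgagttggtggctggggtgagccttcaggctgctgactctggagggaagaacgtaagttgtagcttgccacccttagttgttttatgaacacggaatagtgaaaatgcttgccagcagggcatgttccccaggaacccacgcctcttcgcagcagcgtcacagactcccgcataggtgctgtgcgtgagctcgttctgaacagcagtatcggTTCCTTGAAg
B3gnt7, chr1:86302971-86303220, + strand: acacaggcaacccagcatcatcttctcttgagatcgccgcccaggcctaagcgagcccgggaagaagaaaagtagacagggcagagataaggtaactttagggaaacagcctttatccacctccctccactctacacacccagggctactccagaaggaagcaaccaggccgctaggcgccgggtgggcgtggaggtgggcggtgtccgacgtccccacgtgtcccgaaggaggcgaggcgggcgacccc
B3gnt3, chr8:71701801-71702050, - strand: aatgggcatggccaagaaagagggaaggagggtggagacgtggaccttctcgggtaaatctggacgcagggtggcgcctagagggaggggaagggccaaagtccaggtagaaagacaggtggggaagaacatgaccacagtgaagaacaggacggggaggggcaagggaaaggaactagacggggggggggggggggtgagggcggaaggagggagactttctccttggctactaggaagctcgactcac
In the GENCODE annotation a retained-intron transcript of B3gnt7 already covers its window. The B3galt5 match begins 10 bases before the start, and the windows of the other 2 B3galt5 starts and those of B3gnt7 and B3gnt3 hold none of the 3 motifs. The STAT motif occurred in 7.02% of 32851 RefSeq promoter windows of this length and in 4 of the 51 windows of tested members (7.84%), which are similar shares. The interferon-stimulated element was in 2.98% of all windows and in 0 of 51 windows of members, and the NF-kB motif in 5% of all windows and in 1 of 51 (1.96%). A promoter entry was found for 36 of the 49 tested members, Fut2 not among them, and the untested members were not searched.

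The other extension enzymes moved less. B4galt1, which makes N-acetyllactosamine and is the member of this step with the highest mean level, was at 25.0, 23.5 and 32.3 in WT and at 35.1, 31.2 and 55.6 in KO. The groups overlapped, but within each couple KO was higher, by 0.48, 0.39 and 0.76 (log2 change 0.54, SE 0.25, limma adjusted p = 0.353, and 0.0337 with the couple as a block). The 4 others, B4galt3, B4galt4, B3gntl1 and B3gnt9, had log2 changes between -0.26 and 0.02. Among them B4galt4 lay at 7.56 to 8.62 in KO and at 8.83 to 11.1 in WT, which do not overlap, without passing the test (limma adjusted p = 0.446).

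Initiation, by contrast, showed no call in either direction with limma without the block, and 1 higher and 1 lower member at an unadjusted p under 0.05. The median log2 change of the 10 initiating enzymes was -0.07, with 4 above and 6 below 0. Galnt6 had the highest level of them, at 48.5, 73.4 and 76.2 in WT and at 45.1, 45.6 and 69.2 in KO. The ranges overlapped widely (66.0 ± 15.2 and 53.3 ± 13.8, SD, n = 3 each; log2 change -0.30, SE 0.26, limma adjusted p = 0.633). Galnt1, a broadly expressed initiator, was at 34.3, 24.2 and 36.6 in WT and at 36.2, 28.2 and 37.6 in KO, and differed by 0.11 on the log2 scale (SE 0.22, limma adjusted p = 0.866).

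Within this step Galnt11 and Galnt3 went opposite ways. Galnt11, known for glycosylating endocytic receptors of the LDL receptor family, was at 7.52, 5.79 and 5.55 in WT and at 3.35, 3.49 and 3.46 in KO. Each KO library was below each WT library (log2 change -0.71, SE 0.15), and the gene fell only with the couple as a block (limma adjusted p = 0.0757 without and 0.0268 with it). Galnt3, known for protecting the hormone FGF23 from cleavage, was at 7.27, 6.74 and 6.37 in WT and at 9.91, 8.74 and 8.31 in KO, again without overlap. Its log2 change was 0.36 (SE 0.14, limma adjusted p = 0.280), with couple values of 0.40, 0.33 and 0.34 and an adjusted p of 0.0391 with the block. The other 6 initiators had changes between -0.28 and 0.14.

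Core formation and branching had no call with limma without the block, and 1 member at an unadjusted p under 0.05, which was higher. The median of the 7 members was 0.25, and 6 of them were above 0, against 5741 of the 11911 genes tested. C1galt1, the core 1 synthase, was at 16.9, 9.27 and 14.3 in WT and at 22.8, 12.7 and 18.3 in KO. The couples sat at different levels, so the groups overlapped, but KO was higher in 3 of 3 couples by 0.41, 0.42 and 0.33 (log2 change 0.39, SE 0.28, limma adjusted p = 0.558, and 0.0333 with the block). C1galt1c1, the chaperone (Cosmc) that core 1 synthase needs, was at 25.2, 19.2 and 24.2 in WT and at 29.4, 29.5 and 32.4 in KO without overlap (log2 change 0.41, SE 0.17, limma adjusted p = 0.299, and 0.0538 with the block).

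The branching enzymes differed less. Gcnt4, a core 2 enzyme, was at 15.4, 16.1 and 17.0 in WT and at 16.2, 19.1 and 15.3 in KO. Gcnt2, which makes the branched I antigen, was at 5.33, 3.11 and 4.22 in WT and at 4.52, 4.18 and 3.42 in KO. Both overlapped, with log2 changes of 0.05 (SE 0.15, limma adjusted p = 0.912) and -0.04 (SE 0.20, limma adjusted p = 0.958). The remaining 3, Gcnt3, Gcnt1 and the core 3 synthase B3gnt6, had changes between 0.09 and 0.36.

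At the capping steps, terminal GalNAc included the most abundant member of the whole family. B4galnt2, which makes the Sda antigen on gut epithelium, was at 168, 175 and 160 in WT and at 138, 122 and 152 in KO. No KO library reached a WT library, but the shift was small (168 ± 7.57 and 137 ± 15.2, SD, n = 3 each; log2 change -0.29, SE 0.19, limma adjusted p = 0.528). B4galnt4 and B4galnt3, which add GalNAc to GlcNAc, differed in pattern. B4galnt4 was at 3.02, 3.27 and 3.11 in WT and at 5.53, 6.07 and 3.01 in KO, so couple 3 did not share the difference of couples 1 and 2 (log2 change 0.46, SE 0.23, limma adjusted p = 0.380). B4galnt3 was at 5.92, 9.58 and 9.56 in WT and at 6.18, 7.93 and 8.88 in KO, which overlap (log2 change -0.10, SE 0.22, limma adjusted p = 0.887).

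Beside Fut2, 2 fucosyltransferases passed the filter, and neither was called. Fut8, which adds the core fucose of N-glycans, was at 17.5, 15.1 and 17.5 in WT and at 20.3, 15.6 and 18.5 in KO (log2 change 0.11, SE 0.16, limma adjusted p = 0.806). Fut4, which makes Lewis x structures, was at 8.84, 8.21 and 7.77 in WT and at 10.6, 12.9 and 8.23 in KO (log2 change 0.31, SE 0.18, limma adjusted p = 0.473). Both sets of values overlap between the genotypes. In controls Fut8 and Fut4 were far above Fut2, whereas in the KO library of couple 3 Fut2 exceeded Fut4.

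Sialyltransferases differed by gene, with a median of 0.02 over 10 tested members and 5 on each side of 0, and none was called with limma without the block (4 higher and 1 lower at an unadjusted p under 0.05). St6galnac4 and St6galnac6, which add sialic acid to GalNAc or GlcNAc of sialylated acceptors, were the members of this step with the highest changes. St6galnac4 was at 0.941, 2.36 and 1.95 in WT and at 3.62, 4.00 and 6.24 in KO, and St6galnac6 at 1.02, 1.53 and 1.81 in WT and at 4.02, 3.10 and 6.09 in KO. Neither overlapped between the genotypes. Their log2 changes were 1.04 (SE 0.26, limma adjusted p = 0.109, and 0.0277 with the block) and 1.12 (SE 0.24, limma adjusted p = 0.0724, and 0.0223 with the block). In the GENCODE annotation of GRCm38 they follow each other on the + strand of chromosome 2 (32587095 to 32599698 and 32599709 to 32620806) with a gap of 10 bases. Reads near that boundary could be counted for either gene, so their values are not fully separate measurements.

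Of the enzymes that add sialic acid to galactose, St3gal4 was at 1.88, 1.25 and 1.38 in WT and at 3.18, 1.89 and 2.61 in KO, the lowest KO value being just above the highest WT value. It rose with the block only (log2 change 0.50, SE 0.20, limma adjusted p = 0.269, and 0.0379 with it). St6gal1, which caps N-glycans, was at 3.94, 3.66 and 2.41 in WT and at 7.79, 3.99 and 5.39 in KO. The lowest KO value was just above the highest WT value, and couple 2 hardly differed (log2 change 0.61, SE 0.25, limma adjusted p = 0.285).

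In the other direction, St6galnac2, which sialylates core 1 glycans, was at 5.97, 4.63 and 4.90 in WT and at 3.08, 4.05 and 2.61 in KO, without overlap (log2 change -0.55, SE 0.18, limma adjusted p = 0.191). St3gal6, the sialyltransferase with the highest mean level, was at 11.6, 7.94 and 11.0 in WT and at 8.07, 6.58 and 8.90 in KO. It was lower in 3 of 3 couples but overlapped between the groups (log2 change -0.33, SE 0.19, limma adjusted p = 0.456). The remaining 4 sialyltransferases, St3gal1, St3gal2, St3gal3 and St3gal5, had changes between -0.07 and 0.07.

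The enzymes set apart as acting mainly on glycolipids or proteoglycans gave a median of -0.11 over 8 members. B4galt5, which makes lactosylceramide, was at 36.8, 41.6 and 39.9 in WT and at 20.2, 30.1 and 22.5 in KO. The groups did not overlap (39.4 ± 2.45 and 24.3 ± 5.20, SD, n = 3 each), and B4galt5 fell with the couple as a block only (log2 change -0.70, SE 0.19, limma adjusted p = 0.131 without and 0.024 with it). B4galnt1, which makes the ganglioside GM2, was at 49.9, 80.0 and 84.5 in WT and at 43.5, 62.8 and 56.4 in KO, which overlap (log2 change -0.37, SE 0.26, limma adjusted p = 0.549). The remaining 6 had changes between -0.16 and 0.67, the highest being that of B3gnt5, which builds lacto-series glycolipids and was under 2 in each library.

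Other genes of the pathway were counted from lists of donor synthesis, sulfation, removal and the mucins themselves. Of 12 mucin genes 3 were tested and none was called with limma, with or without the block (1 lower at an unadjusted p under 0.05). The same counts held for the 7 tested of 10 related transferases outside the name rule. Muc2, the secreted gel-forming mucin of the gut, was at 123, 331 and 121 in WT and at 89.0, 90.9 and 64.4 in KO. The groups did not overlap, but the WT value of couple 2 was far above the others (log2 change -1.07, SE 0.41, limma adjusted p = 0.256). Among 22 tested genes of nucleotide sugar supply none was called with limma without the block (2 higher at an unadjusted p under 0.05).

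Gmds, chosen here after its values were seen, makes the first intermediate of GDP-fucose, the donor that Fut2 uses. It was at 40.0, 35.7 and 53.2 in WT and at 82.1, 93.1 and 118 in KO, which do not overlap (log2 change 1.17, SE 0.23, limma adjusted p = 0.0528, and 0.00931 with the block). Of 7 tested sulfation genes 1 fell and none rose. This was Gal3st2, which sulfates galactose and was at 51.1, 44.6 and 56.2 in WT and at 12.6, 17.6 and 23.1 in KO (log2 change -1.50, SE 0.24, limma adjusted p = 0.0256). With the block, Chst4 also rose and Papss1 also fell, both picked after their values were seen. Among 9 tested genes of glycan removal none was called with limma without the block (3 lower at an unadjusted p under 0.05).

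Cell markers moved with genotype in these whole-tissue libraries, where fewer cells of a type and less RNA per cell cannot be told apart. The summed level of 10 enterocyte markers was 17279 to 24022 in untreated WT and 8803 to 15920 in untreated KO, and that of 11 goblet markers 5064 to 7090 and 3957 to 5613. Markers of T and NK cells (7 genes) summed to 19.5 to 27.8 in WT and 55.2 to 85.7 in KO, those of B and plasma cells (7 genes) to 152 to 253 and 300.4 to 633, and those of proliferation (6 genes) to 80.8 to 103 and 107 to 139. Macrophage and dendritic cell markers (6 genes) summed to 70.0 to 99.0 and 116 to 210. Lyz2 made up most of that sum, at 48.2 to 80.1 in WT and 94.2 to 185 in KO. The median log2 change of the 5 tested macrophage and dendritic cell markers was -0.03. Enteric neuron and glia markers (6 genes) summed to 4.17 to 7.60 in WT and 3.02 to 3.29 in KO. Without the block, 1 of 10 enterocyte markers (Lct) fell (6 with it), 1 of 7 T and NK markers (Cd3g) and 1 of 6 tested B and plasma markers (Mzb1) rose (3 and 2 with it), and no goblet marker was called (2 rose and 2 fell with it). With the block, 4 of 6 proliferation, 2 of 7 Paneth, 1 of 5 tested macrophage and dendritic and 1 of 5 tested enteroendocrine markers rose, 2 of 4 tested endothelial markers and the 1 tested neuron and glia marker fell, and no stem cell, smooth muscle or fibroblast marker was called. The 5 tuft markers summed to 1.72 or less in each library and none passed the filter. None of the listed markers was at 0 in all libraries. The part of these shifts in the glycosyltransferase differences was not tested.

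**Figure D4:**
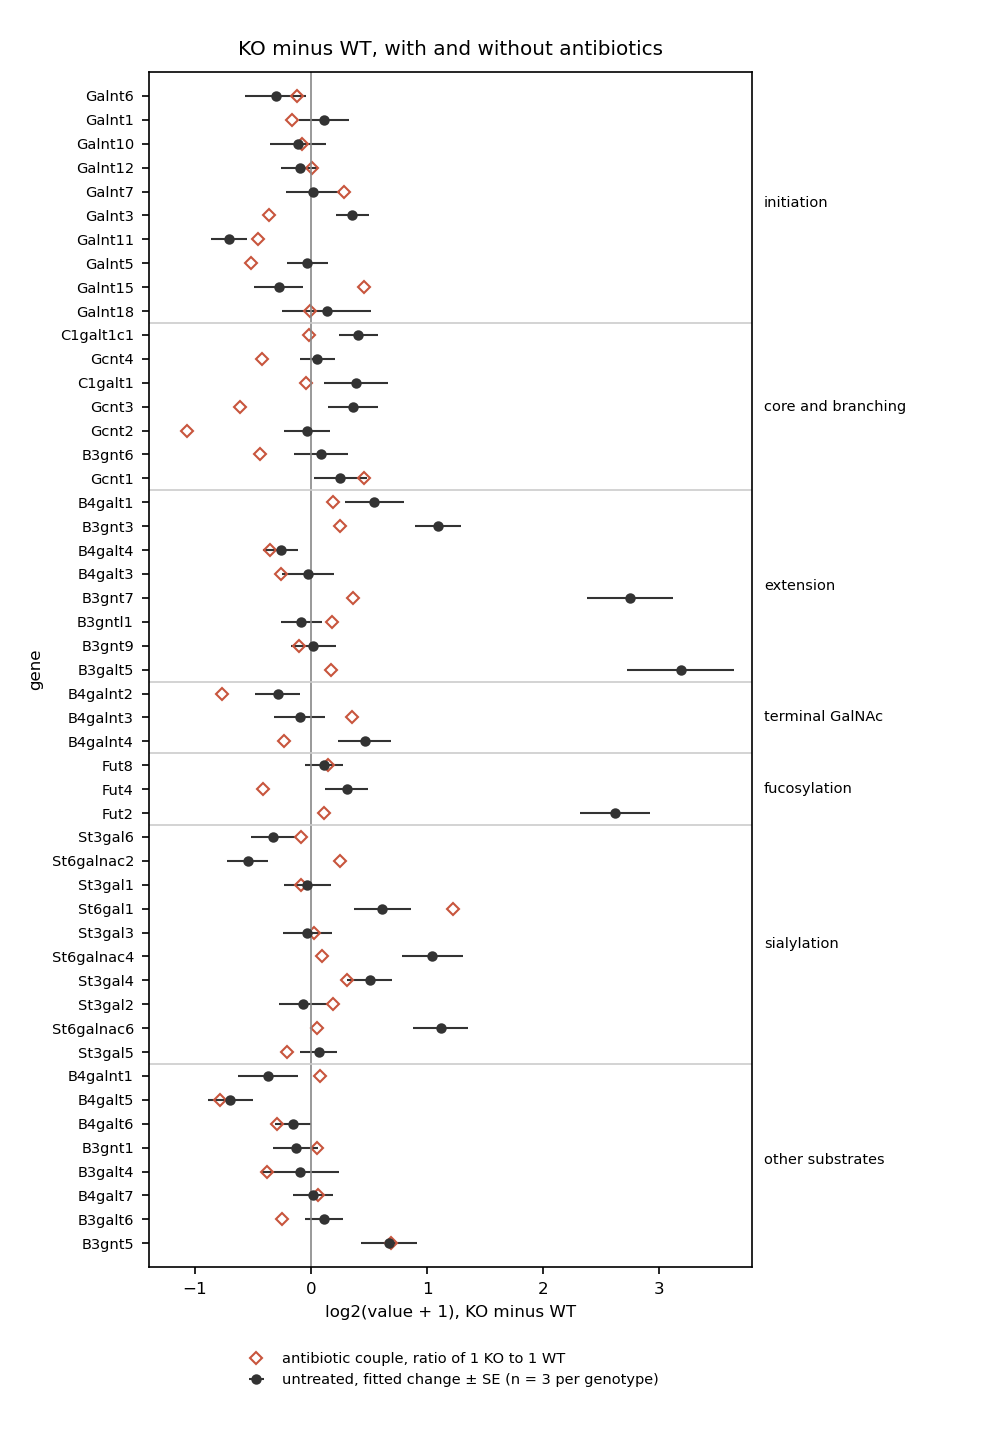
KO minus WT difference of log2(value + 1) for the 49 tested members, grouped by role: filled circles with bars are the fitted untreated change ± SE (n = 3 per genotype), and open diamonds are the antibiotic couple (1 KO and 1 WT library, no error). Without antibiotics B3galt5, B3gnt7 and Fut2 lie far to the right, and B3gnt3 lies beside the uncalled St6galnac6 and St6galnac4. The diamonds of the 4 called members are near 0.

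In the antibiotic couple the 4 called members differed little between the genotypes. This couple has 1 library per genotype, so its ratio has no replicate check. B3gnt7 was at 2.87 in WT and 3.96 in KO, B3galt5 at 0.201 and 0.354, B3gnt3 at 11.3 and 13.6, and Fut2 at 0.136 and 0.230. The log2 differences were 0.36, 0.17, 0.25 and 0.12, against 2.75, 3.18, 1.09 and 2.62 without antibiotics. In each of these 4 genes the antibiotic KO library lay below every untreated KO library, and so it did for St6galnac4 (1.25 in WT, 1.41 in KO) and St6galnac6 (1.10 in WT, 1.18 in KO). For B3galt5 and Fut2 the filter fixed this position, since they passed it only through the untreated KO libraries. The position was common: 22 of 49 members were below the untreated KO range, beside 40.6% of all genes.

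The test of the difference in genotype effect, fitted over all 8 libraries with the spread taken from the untreated ones, called 0 of 49 members, beside 0% of 11534 genes (limma). At an unadjusted p under 0.05 it gave 5 members lower (B3galt5, B3gnt7, Fut2, Galnt3 and Gcnt2) and 0 higher, beside 4.18% of all genes in either direction. The differences of log2 change were -2.50 for Fut2 (SE 0.61, limma adjusted p = 0.602), -2.39 for B3gnt7 (SE 0.74, limma adjusted p = 0.926) and -3.01 for B3galt5 (SE 0.92, limma adjusted p = 0.926). With the couple as a random effect, Fut2 (limma adjusted p = 0.027) and B3gnt7 (limma adjusted p = 0.0154) passed the threshold, both lower, beside 0.971% of all genes lower and 0.971% higher in that fit. Antibiotic treatment is here the same as 1 couple and 1 litter, and apparently 1 normalization set, and these cannot be told apart. B3galt5 and Fut2 passed the filter only through the untreated KO libraries, which favours a lower difference, so their values here are a description.

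Immune markers differed between the littermates of that couple, with T and NK markers summing to 8.09 in WT and 32.3 in KO, and B and plasma markers to 87.3 and 440. Enterocyte markers summed to 25683 in WT and 30221 in KO, and goblet markers to 4452 and 3129. Gal3st2, at 48.4 in WT and 60.9 in KO, and Gmds, at 34.0 and 29.0, likewise lacked the untreated difference, which was not called as an interaction for either gene (limma adjusted p = 0.717 and 0.945).

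Some members differed as much or more in the antibiotic couple. St6gal1 was at 1.60 in WT and 5.06 in KO, a log2 difference of 1.22 and the only member at least 2-fold higher on value + 1, beside 3.3% of all genes. Gcnt2 was at 5.27 in WT and 1.99 in KO, a log2 difference of -1.07 and the only member at least 2-fold lower, beside 0.962% of all genes. B4galt5, at 49.9 and 28.6, kept about its untreated difference (-0.78 against -0.70). B4galnt2 was at 177 in WT and 103 in KO, the lowest value of that gene in any library. Galnt11 was again lower in KO, at 6.13 and 4.19, but by less than without antibiotics (-0.46 against -0.71).

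Antibiotics against none, with genotype as a second term, called 0 of 49 members with limma in either direction, beside 0.13% of all genes higher, 0.026% lower and 0.156% in either direction. At an unadjusted p under 0.05, 10 members were lower and 3 higher (B4galt6, St3gal6 and Fut8), beside 19.4% of all genes in either direction. B3galt5 and Fut2, which passed the filter only through untreated KO libraries, are among the 10. The lowest adjusted p of a member was 0.115. Among the 3 higher members, St3gal6 was at 15.3 and 14.3 with antibiotics, above all 6 untreated libraries, and Fut8 was at 21.6 and 24.0, also above all 6. In the WT library alone, 19 of 49 members lay below the untreated WT range and 9 above it, beside 39.7% and 10.4% of all genes.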

How the data were processed

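RNA of 8 libraries was analysed from 1 deposited table of RPKM-like values. The authors sequenced on Illumina or Ion Proton instruments, per the series' design text, and mapped reads in CLC Genomics Workbench 7.5 to the mouse genome GRCm38 with annotation 76. For the counting rule, the unit and the sequencer of each library, the labels say nothing, and read depth is unknown. The deposited values were taken as RPKM. After sorting, couples 1 and 2 held the same values in all 4 libraries, and littermates shared 96.7% of distinct values in couple 3 and 93.5% in the antibiotic couple, so 3 separately normalized sets were assumed. The library protocol in the labels does not mark strand, so overlapping or antisense genes cannot be separated.

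Genes reaching 1 in 3 or more of the 8 libraries were tested on log2(value + 1), pseudocount 1, with limma 3.58.1 run with its trend option in R 4.3.3. Adjustment was by Benjamini-Hochberg, with calls at 0.05. The untreated comparison used 6 libraries. Replicates are separate mice. The labels pair them as littermates: deviations from group means correlated at 0.615, 0.632 and 0.526 within couples 1, 2 and 3 and at -0.485 to -0.078 between couples, so blocked values are printed where they change a call. Antibiotic terms used all 8 libraries and 11534 genes. They left out 405 genes with doubtful values in the antibiotic WT column (shared non-zero values, 0 beside at least 1 in the littermate, or more than 3 log2 units below), none of them a member.

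Members named with values per library were those called with or without the block, the 2 with the highest mean and the 1 with the largest fitted change in each role, and those at least 2-fold different in the antibiotic couple. Members and gene lists were chosen with earlier results of these data known. Gene positions come from GENCODE and promoters from RefSeq, both for GRCm38. The row B3gnt1 is the gene now named B4gat1. The fitting was tested on simulated data. The alternatives were other pseudocounts, filters and scalings, the block, and leaving out libraries or couples, the last without the block being added after the data were seen. Blocked results of the nucleotide sugar and glycan removal lists are not reported here.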

Additional observations from a re-analysis of the deposited data

How the results depend on the processing

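With the couple as a replicate block, 10 members were called higher and 2 lower instead of 4 and 0, and 961 and 1134 of all genes instead of 128 and 115. Without a filter on low values, 0 members and 7 genes were called higher and 4 genes lower. The same 4 members were called with pseudocounts of 0.1 and 0.5 and with a filter over the 6 untreated libraries. They were also called with those 6 libraries quantile-normalized together, and with no trend in the prior variance. Leaving out a library or a couple gave 0 to 7 members higher and 0 to 1 lower, and 0 to 265 genes higher and 0 to 290 lower. Of these, leaving out 1 library gave 2 to 4 members, 38 to 71 genes higher and 25 to 68 genes lower, and leaving out a couple without the block called no gene. With the block, leaving out couple 2 gave 215 genes higher and 231 lower, and leaving out couple 3 gave 265 and 290. With the block and couple 1 left out, B3gnt7 and Fut2 remained called. The sign of the change when libraries were left out was followed only for members named with values per library. Among the uncalled ones of these it turned for B4galnt3 (-0.30 to 0.033), Galnt1 (-0.069 to 0.23), Gcnt2 (-0.22 to 0.12, with 0.046 and 0.067 without couples 1 and 3) and Gcnt4 (-0.035 to 0.15). The remaining uncalled members were not examined for this. For antibiotics against none, leaving out libraries gave 0 to 2 members lower, the 2 being B3gnt7 and Fut2 without the antibiotic WT library. For the difference of genotype effects, the couple as a random effect (replicate block) gave 2 members lower, B3gnt7 and Fut2, instead of 0. The cause of these changes was not tested, except that fewer libraries leave fewer degrees of freedom. Read depth is unknown, so no counting error could be given. Members near a value of 1 are the least certain.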

Other observations

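The members that did not pass the filter were low in each library that lists them. Of the 33, the highest single values were those of B3gnt2, at 1.95 in the WT and 1.37 in the KO library of couple 3 and under 1 in the other 6, and B3gnt8, at 1.35 in the WT and 1.30 in the KO library of couple 2. Galnt2, a widely expressed initiator in many tissues, was at 0.378 to 0.937 in couples 1 and 2 and listed at 0 in couple 3. St6galnac1, which makes the sialyl-Tn antigen on mucins, was at 0.362 to 0.666 in couples 1 and 2 and at 0.436 and 0.622 in the antibiotic couple. Galnt6os, annotated across 9124 bases of Galnt6 on the opposite strand, was at 0.0434 in 1 library and listed at 0 in the other 7, beside 45.1 to 76.2 for Galnt6.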
